A study of Mus musculus with 6 samples.

Results

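The genes described here are 7 fatty acid binding proteins (Fabp1 to Fabp7), the fatty acid receptor Cd36 and the lipid droplet coat proteins Plin1 and Plin2, 10 genes of 16637 with a name on the array. They were chosen by symbol, with earlier results of these data known. They were read by 11 of 29922 probes, since Fabp5 has 2 probes and each of the others has 1. On the array Plin1 and Plin2 carry their older names Plin and Adfp. All 11 probes have a value in each of the 6 samples. The samples are brain, liver and intestine of male FVB mice taken 3 h after 8.5 Gy of total-body irradiation, against the same organs of untreated male FVB mice, all 6 to 8 weeks old. Every mouse, the untreated ones included, carried a luciferase transgene driven by NF-κB elements. Each organ and treatment has 1 column of intensities. The methods name 6 replicates from 6 mice and do not say if a column holds a single array or an average. No spread between replicates could therefore be computed, no test was made, and every difference given is one between a pair of samples. The number of arrays limits the precision.

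Fatty acid binding proteins are small carriers that hold long-chain fatty acids, and in the case of Fabp6 bile acids, in the aqueous cytosol. Cd36 takes fatty acids up at the cell membrane. Perilipins such as Plin1 and Plin2 coat the droplets in which cells store neutral lipid and control the access of lipases to it. The family is known for its division among tissues, with a liver form (Fabp1), an intestinal form (Fabp2), a heart and muscle form (Fabp3), an adipocyte form that macrophages and capillary endothelium also make (Fabp4), an epidermal form (Fabp5), an ileal form (Fabp6) and a brain form of astrocytes and radial glia (Fabp7). Several of these genes are known targets of the PPAR nuclear receptors.

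The median intensity of all probes was 103 in both brain samples, 54 in both liver samples, and 64 in irradiated and 64.5 in untreated intestine. The lowest intensity was 55 in both brain samples, 26 in irradiated liver, and 36 in both intestine samples. No mark of detection came with the values, so no fold is given where either value lay below the median of its sample. A probe was called higher or lower where irradiated over untreated intensity reached 1.8-fold, the threshold of the methods. From these values the organs appeared to have been normalized separately, which the methods do not state. An order of organs is therefore given only where the deposited and the median-centred values both gave it. In bulk tissue, fewer cells of a type and less RNA per cell cannot be told apart.

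In the liver, the adipocyte-type Fabp4 and the epidermal-type Fabp5 were higher after irradiation and Plin1 was lower, while the liver's own form, Fabp1, differed little. In the intestine Cd36 was higher and no member was lower. In the brain none of the 11 probes passed the threshold. By probe, 3 were higher and 1 was lower in liver, where 1.57% of 28395 probes were higher and 2.55% were lower. In intestine 1 was higher and none was lower, where 1.69% of 29781 probes were higher and 2.71% were lower. In brain 0.496% of 27017 probes were higher and 1.1% were lower. The median log2 change over the 10 genes was 0.21 in liver, 0.19 in intestine and -0.03 in brain, beside 0.02 over all genes in each organ.

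**Figure D1:**
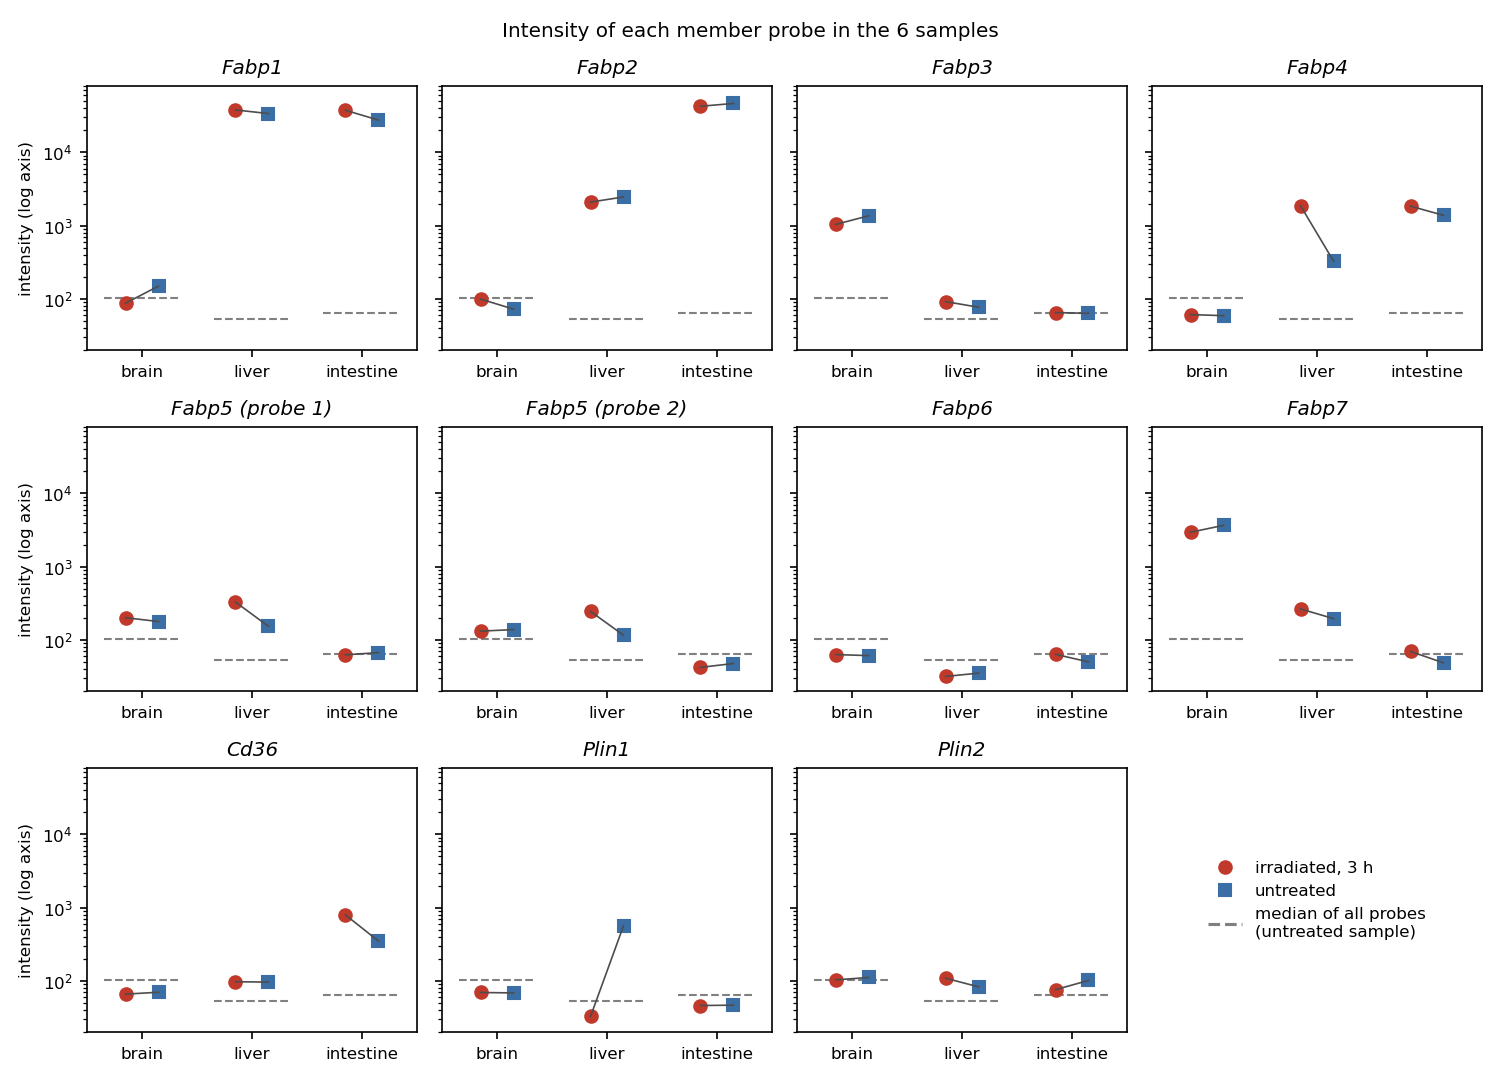
Intensity (log axis) of each of the 11 probes in irradiated (red circles) and untreated (blue squares) brain, liver and intestine, with 1 value per organ and treatment and the median of all probes as a dashed line. Fabp1 and Fabp2 stand far above the medians in intestine, Fabp3 and Fabp7 in brain, and the pairs of points lie far apart for Fabp4 and Plin1 in liver.

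Fabp4, which shuttles fatty acids in adipocytes, macrophages and capillary endothelium, had an intensity of 1860.5 in irradiated liver and 328 in untreated liver, which is 5.67-fold higher (log2 change 2.50). It was the 21st largest rise among the 28395 probes of liver. The paper's own mean fold for Fabp4 in liver, given over 6 replicates, was smaller and had a wide standard error. In intestine Fabp4 read 1844.5 in the irradiated and 1384.5 in the untreated sample, a ratio of 1.33 that did not reach the threshold. In brain it lay near the lowest intensities, at 61.5 and 59.5 in irradiated and untreated samples. In irradiated mice the liver had the slightly higher level of the pair, by 0.01 on the log2 scale as deposited and by 0.26 after centring each sample on its median. In untreated mice the intestine had the higher level, by 2.08 as deposited and by 1.82 after centring.

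Fabp5, named for the epidermis but made by many cell types, macrophages among them, was higher in irradiated liver on both of its probes. The brighter probe read 330 in irradiated and 154 in untreated liver, which is 2.14-fold higher. The dimmer probe read 246 in irradiated and 116.5 in untreated liver, which is 2.11-fold higher. The log2 changes of the probes, 1.10 and 1.08, were almost the same, and these were the 184th and 196th largest rises in the organ. With 50 added to both intensities the dimmer probe no longer passed, and 2 of the 11 probes were then called higher in liver. The brighter probe read 202 in irradiated and 179 in untreated brain, and the dimmer one 132.5 in irradiated and 139 in untreated brain. In intestine both probes lay below the median in both samples or close to it, at 63 and 67.5 for the brighter and 42.5 and 48 for the dimmer in irradiated and untreated samples. Fabp5 and Fabp4 lie in 1 cluster of related genes on chromosome 3, in which the RefSeq order of coding genes is Fabp5, Pmp2, Fabp9, Fabp4 and Fabp12. Of the neighbours, Fabp9, the sperm form, read 107 in irradiated and 82.5 in untreated liver, and Fabp12 read 45 in irradiated and 53.5 in untreated liver, so neither reached the threshold.

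Plin1, the coat protein of the large droplets of adipocytes, had an intensity of 33 in irradiated liver and 567 in untreated liver. The irradiated value lies below the median of 54, so the probe is called lower with no size given. In the other 4 samples Plin1 lay below the median, at 70 in irradiated and 69 in untreated brain and at 46.5 in irradiated and 47 in untreated intestine. The untreated liver was therefore the only sample of the 6 with a Plin1 signal above the median, and this rests on 1 probe in 1 sample. Counting, by a measure chosen after the values were seen, the probes below the median in the irradiated sample and at 5 or more times the median in the untreated one gave 6 in liver (Plin1 among them), 8 in brain and 4 in intestine. The opposite pattern was shown by 7, 2 and 8 probes in those organs.

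Markers of adipocytes, the cell type known for Plin1 and Fabp4, were set beside these values. None of 9 measured adipocyte markers passed 1.8-fold in liver, with a median log2 change of 0.11. Adipoq, the adipocyte hormone adiponectin, read 49.5 in irradiated and 46 in untreated liver, below the median in both. Cfd, the secreted protease adipsin, read 31 in irradiated and 32 in untreated liver, and Cidec, which fuses lipid droplets, read 45 and 40.5. These markers were below the median in both livers, but 5 of the 9 had a probe at or above it in both. The leptin gene Lep was slightly above it, at 77.5 in irradiated and 60 in untreated liver. The brighter probe of Lpl read 861.5 in irradiated and 987 in untreated liver, and that of Lipe 123 and 121.5. The summed intensity of the adipocyte list, 65329 in irradiated and 84566.5 in untreated liver, came mostly from Pck1 and Car3, which hepatocytes also express. The part of adipocytes in the values of Plin1 and Fabp4 was not tested.

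Macrophages and endothelial cells also make Fabp4. Of 10 macrophage markers in liver, none was higher and 2 were lower. Adgre1, the F4/80 antigen of Kupffer cells, read 153 in irradiated and 361 in untreated liver (2.36-fold lower), and the calcium-binding protein gene Aif1 read 167.5 and 317.5 (1.90-fold lower). Other members of the list read higher without passing, among them the scavenger receptor gene Marco, at 284 in irradiated and 196 in untreated liver, and the integrin gene Itgam, at 120.5 and 83.5. Others read lower without passing, among them Clec4f, at 367.5 in irradiated and 533.25 in untreated liver. In all 5 markers lay above and 5 below a log2 change of 0, with a median of 0.02. The summed intensity of the macrophage list was 1677.5 in irradiated and 2106.25 in untreated liver. Of 9 endothelial markers in liver none passed, with a median log2 change of -0.03 and a summed intensity of 948.25 in irradiated and 1028 in untreated liver. The part of these cell types in the differences of Fabp4 and Fabp5 was not tested.

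**Figure D2:**
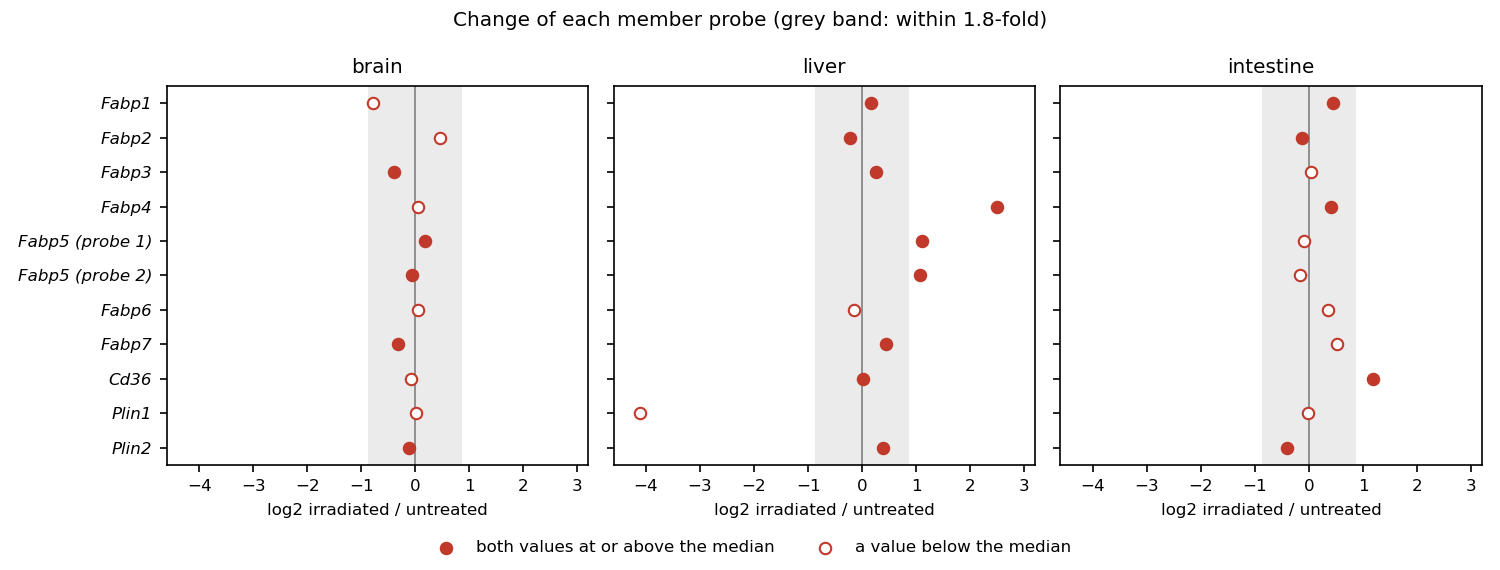
Log2 ratio of irradiated to untreated intensity for each of the 11 probes, with a panel for each organ. Filled points have both values at or above the median of their sample, open points do not, and the grey band covers changes within 1.8-fold. In liver Fabp4 (2.50) and both Fabp5 probes (1.10 and 1.08) lie right of the band and Plin1, an open point whose distance has no measured size, lies left of it, in intestine Cd36 (1.18) lies right of it, and in brain every point lies inside.

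Cd36, the scavenger receptor that brings long-chain fatty acids into enterocytes, muscle, fat and capillary endothelium, read 799 in irradiated and 351.5 in untreated intestine. This is 2.27-fold higher (log2 change 1.18), the 135th largest rise among the 29781 probes of intestine. Its level hardly differed in liver, at 98 in irradiated and 97 in untreated samples. In brain it was below the median, at 66.5 in irradiated and 70.5 in untreated samples. The intestine had the highest level of the 3 organs in irradiated and in untreated mice, on both scales.

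Markers of the cells that make Cd36 were set beside it. Of 9 adipocyte markers there, 2 were higher and none was lower, with Cfd at 281 in irradiated and 141.5 in untreated intestine (1.99-fold) and Cidec at 308.5 and 160.5 (1.92-fold). Adiponectin read 104 in irradiated and 85.5 in untreated intestine, while Pparg read 70 and 82.5. Of the 9 adipocyte markers 5 lay above and 4 below a log2 change of 0, with a median of 0.09. The summed adipocyte list was 8408 in irradiated and 7213 in untreated intestine. Much of this was Pck1, whose probes disagreed, with 2120 in irradiated and 3186.5 in untreated intestine on one and 4755.5 and 2799.5 on the other. Of 9 endothelial markers 1 was higher, the VEGF receptor gene Kdr, at 241 in irradiated and 104 in untreated intestine (2.32-fold). Gpihbp1 read 110.5 in irradiated and 45.5 in untreated intestine on one probe and 94.5 and 86 on the other. The mean over its probes did not pass, and neither did Pecam1 or Cdh5. Of the 9 endothelial markers 6 lay above and 2 below a log2 change of 0, with a median of 0.10, and Tek did not differ. The summed endothelial list was 1215.5 in irradiated and 955.5 in untreated intestine. Of 8 enterocyte markers none passed, while 5 lay above and 3 below a log2 change of 0, with a median of 0.25. Vil1 read 4160.5 in irradiated and 2476 in untreated intestine and Cdhr5 8243 and 5014.5, while Alpi read 4023 and 4518.5. The summed enterocyte list was 50509.5 in irradiated and 35063 in untreated intestine. Much of that sum was Apoa4, whose probes disagreed, with 22611 in irradiated and 10342 in untreated intestine on one and 8087.5 and 9510 on the other. Of 10 macrophage markers none was higher and 2 were lower, while 6 lay above and 4 below a log2 change of 0 with a median of 0.05. The lower ones were Lyz2, at 256 in irradiated and 901 in untreated intestine, and Adgre1, at 113 and 232.5, and the list summed to 1931.5 in irradiated and 2534 in untreated intestine. The part of these cell types in the difference of Cd36 was not tested.

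Fabp1, the abundant carrier of hepatocytes and enterocytes, had very high signals in liver and intestine and differed little after irradiation. It stood at 699 times the median in irradiated and 624 times the median in untreated liver. In liver it read 37761 in the irradiated and 33698 in the untreated sample (ratio 1.12). In intestine it read 37382 in the irradiated and 27470.5 in the untreated sample (ratio 1.36, log2 change 0.44). Brain was far lower, at 88 in the irradiated sample, below the median, and 150.5 in the untreated one, and was not called. Liver and intestine were too close for an order in irradiated mice, where quantile normalization of all samples turned it round.

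The intestine samples also differed in transcripts of hepatocytes. None of 9 hepatocyte markers was higher and 4 were lower in irradiated intestine, with a summed intensity of 2345.5 in the irradiated and 5570 in the untreated sample. Alb, which encodes serum albumin, read 268 in irradiated and 2175 in untreated intestine (8.12-fold lower), and the fibrinogen chain gene Fgb read 159 and 622 (3.91-fold lower). Fabp1 read 37382 in irradiated and 27470.5 in untreated intestine. In brain, where Fabp1 read 88 and 150.5, Alb read 112 in the irradiated and 290 in the untreated sample (2.59-fold lower), while Ttr, which the choroid plexus also makes, read 428.5 and 229 (1.87-fold higher). In liver itself 1 of 9 hepatocyte markers was lower, Ahsg, and the list summed to 203205 in irradiated and 198787 in untreated samples, and 1 of 8 enterocyte markers was higher, Apob, which hepatocytes also make. The part of liver transcripts in the Fabp1 values of these organs was not tested.

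The promoter of Fabp1 is shown because PPAR and RXR are known to bind it as a pair, and those of Cd36 and Plin1 because these are members past the threshold with a promoter in the RefSeq table. Each is the 150 bases before the start site in mouse GRCm38.p6, written 5′ to 3′ on the gene's strand, Fabp1 at chr6:71199729-71199878 (plus), Cd36 at chr5:17835897-17836046 (minus) and Plin1 at chr7:79732777-79732926 (minus). Capitals mark matches to the motifs named in the next paragraph.
Fabp1: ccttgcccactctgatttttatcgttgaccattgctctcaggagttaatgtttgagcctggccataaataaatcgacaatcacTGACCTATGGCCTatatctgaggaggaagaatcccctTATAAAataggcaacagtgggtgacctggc
Cd36: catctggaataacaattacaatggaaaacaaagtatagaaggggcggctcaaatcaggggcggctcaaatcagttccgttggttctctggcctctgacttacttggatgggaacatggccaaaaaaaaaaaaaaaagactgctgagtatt
Plin1: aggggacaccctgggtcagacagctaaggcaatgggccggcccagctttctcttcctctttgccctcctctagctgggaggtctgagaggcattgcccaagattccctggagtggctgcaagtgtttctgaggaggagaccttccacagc

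The direct repeat DR1, the element that PPAR and RXR bind (AGGTCA, any 1 base, AGGTCA), was searched on both strands over the 250 bases before each start with up to 1 mismatch. Of the 8 members with a promoter in the table (Fabp1, Fabp2, Fabp3, Fabp6, Fabp7, Cd36, Plin1 and Plin2) only Fabp1 held a match, on the minus strand from 67 to 55 bases before the start, written TGACCTATGGCCT in the Fabp1 line with 1 mismatch to the repeat. Such a match was present in 0.484% of 32851 promoters. A TATA box (TATAAA, both strands, no mismatch) was found in Fabp1 from 30 to 25 bases before the start and, on the minus strand, in Fabp6 from 29 to 24 bases before it, against 12.4% of all promoters. The NF-κB site (GGGA, any 1 base, TTTCC) was in none of the 8 with up to 1 mismatch, against 6.62% of all promoters. These are matches of letters in a short window and no measure of binding.

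Fabp2, the intestinal form that carries dietary fatty acids in enterocytes, read 42385.5 in irradiated and 46247.5 in untreated intestine (ratio 1.09). In liver it read 2097 in the irradiated and 2462.5 in the untreated sample (ratio 1.17). In brain it lay below the median, at 100 in irradiated and 73 in untreated samples. The order intestine, liver, brain held in irradiated and untreated mice on both scales, with a gap between intestine and liver of 4.34 in irradiated and 4.23 in untreated mice on the log2 scale as deposited. Fabp6, which carries bile acids in the ileum, was low everywhere, at 64 in irradiated and 50.5 in untreated intestine. It read 32 in irradiated and 35.5 in untreated liver, and 63.5 in irradiated and 61.5 in untreated brain. Other ileal genes were divided in the intestine. The bile acid importer Slc10a2 read 43.5 in both samples and the ileal hormone Fgf15 read 61 in irradiated and 70 in untreated intestine, near or below the median, while the exporter subunit Slc51a read 3515.5 in irradiated and 2362.5 in untreated intestine. Slc51b, at 245.25 in irradiated and 184 in untreated intestine, and Nr1h4, at 668.5 and 520.25, were also above the median.

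Fabp7 and Fabp3 were the members with their highest level in brain on both scales. Fabp7, which binds docosahexaenoic acid in astrocytes and radial glia, read 2950.5 in irradiated and 3660 in untreated brain (ratio 1.24). It read 266 in irradiated and 196 in untreated liver, and 70 in irradiated and 49 in untreated intestine. Fabp3, the form of heart and skeletal muscle that neurons also use, read 1041 in irradiated and 1365 in untreated brain (ratio 1.31). Its signal in liver was 92.5 in the irradiated and 77.5 in the untreated sample, and in intestine 65.5 and 64. For both genes brain was highest in irradiated and untreated mice on both scales, with both brain values above all 4 others. Of 8 astrocyte markers in brain none passed 1.8-fold, with a summed intensity of 20279.5 in irradiated and 17008.2 in untreated brain, and of 7 neuron markers 1 was lower, Tubb3, with a summed intensity of 30005.8 and 30556.5. Of 7 oligodendrocyte markers 1 was lower, the myelin protein gene Mbp, at 3143.5 in irradiated and 6676 in untreated brain, and 6 lay below a log2 change of 0, with a median of -0.50 and a summed intensity of 5689.5 in irradiated and 9635.5 in untreated brain. The part of these cell types in the Fabp7 and Fabp3 values was not tested.

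Plin2, the droplet coat of cells other than adipocytes, lay close to the medians, at most 2.03 times the median of its sample. It read 109.5 in irradiated and 83.5 in untreated liver (ratio 1.31), and 76.5 in irradiated and 102 in untreated intestine (ratio 1.33, lower). In brain it read 104 in irradiated and 112 in untreated samples. No organ stood highest on both scales in untreated mice.

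**Figure D3:**
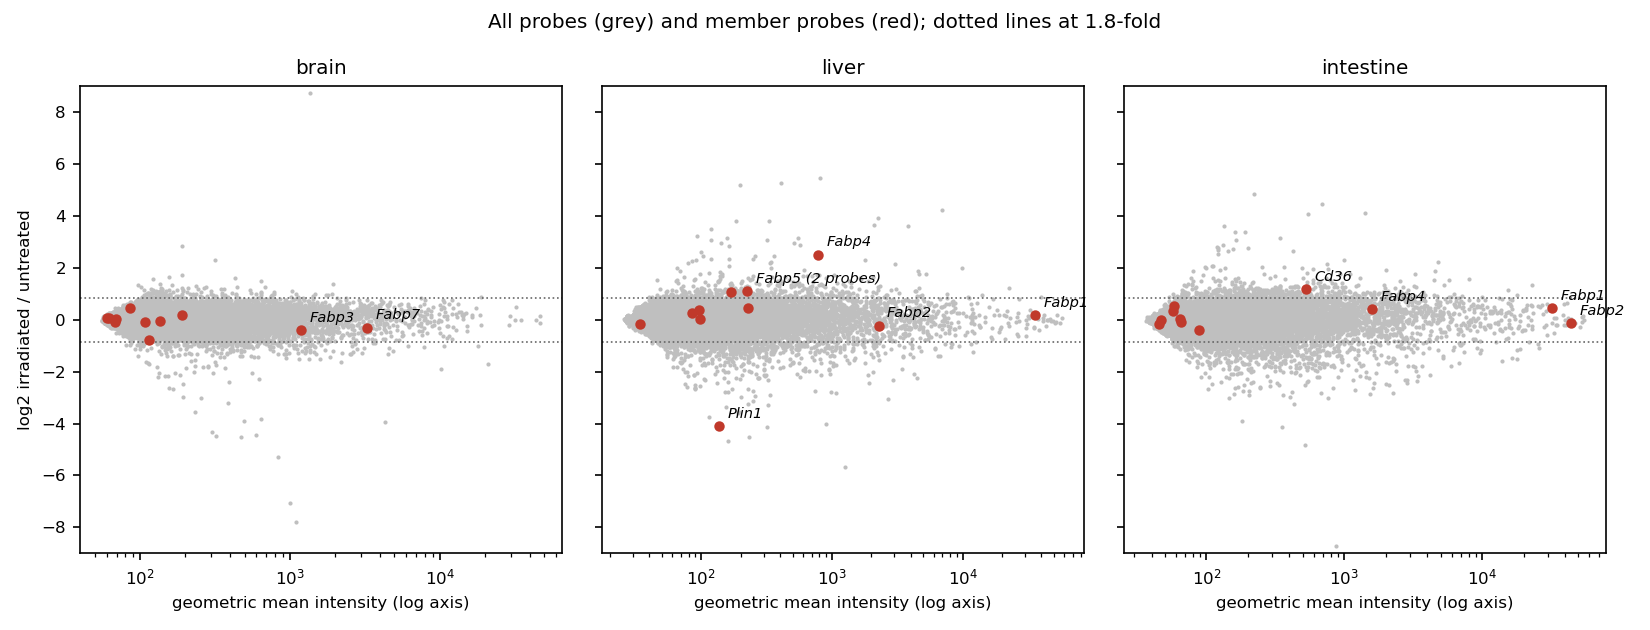
Log2 ratio of irradiated to untreated intensity against the geometric mean intensity (log axis) for all probes (grey) and the 11 probes of the members (red), with a panel for each organ and dotted lines at 1.8-fold. Fabp4 and Plin1 lie at the edge of the cloud of liver probes, whereas Fabp1 and Fabp2 lie at its bright end near a ratio of 1.

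Other genes of lipid binding, droplets, uptake and PPAR control were counted to place the members. Counted per gene instead of per probe, the background was 1.51% higher and 2.53% lower for liver (16118 genes), 1.72% and 2.79% for intestine (16595), and 0.447% and 0.919% for brain (15662). Of the other intracellular lipid binding proteins, 6 were measured in liver and in intestine and 5 in brain. In liver none was higher and 1 was lower, the retinoic acid carrier Crabp1, at 152 in irradiated and 304 in untreated liver (2-fold lower), a call lost with 50 added to the intensities. In intestine 1 was lower, Fabp9, at 85.5 in irradiated and 351.5 in untreated samples (4.11-fold lower). Rbp2, the retinol carrier of enterocytes, read 494 in irradiated and 463 in untreated intestine. The median log2 change of this list was -0.21 in liver, -0.04 in intestine and -0.23 in brain, and none passed in brain.

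Among 17 other droplet genes none was higher and 1 was lower in liver, 1 was higher and 1 lower in intestine, and none passed in brain. Cideb, which serves the lipid loading of lipoproteins in hepatocytes and enterocytes, read 80 in irradiated and 343.5 in untreated intestine (4.29-fold lower). It read 114 in irradiated and 208.5 in untreated liver (1.83-fold lower), a call lost under quantile normalization and with 50 added. Cidec, its relative in fat cells, was higher in intestine, as given above, a call lost with 50 added. The perilipins Plin3, Plin4 and Plin5 did not pass in any organ, and Plin3, which coats small nascent droplets, read 2175 in irradiated and 1430.5 in untreated intestine. The lipases were not called either, with Pnpla2, the first lipase of triglyceride breakdown, at 337.5 in irradiated and 325.5 in untreated liver. The list's median log2 change was 0.00 in liver, 0.17 in intestine and 0.02 in brain.

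Among 18 genes of fatty acid uptake and activation, 1 was higher and 3 were lower in liver, and none passed in intestine or brain. Acsl4, an acyl-CoA synthetase with a preference for arachidonic acid, was 2.26-fold higher in liver over its 4 probes. Its brightest probes read 1364 in irradiated and 560 in untreated liver and 1331.5 and 520.5, and the other probes read 187.5 and 95 and 150.5 and 71.5. All 4 probes were therefore higher, each by more than 1.8-fold. Slc27a5, which activates bile acids and fatty acids in hepatocytes, read 636 in irradiated and 1661.75 in untreated liver (2.61-fold lower). Got2, a mitochondrial aminotransferase also known as a fatty acid binding protein of the plasma membrane, read 2484.5 in irradiated and 5087 in untreated liver (2.05-fold lower). The remaining lower gene was the transporter Slc27a4, named after its values were seen, at 70.5 in irradiated and 134 in untreated liver, a call lost with 50 added. The probes of Slc27a2 disagreed in liver, with 4708.5 in irradiated and 4041.5 in untreated samples on one and 1268 and 3147.5 on the other. In intestine they disagreed as well, with 445 in irradiated and 375.25 in untreated samples on one and 111.5 and 262.5 (2.35-fold lower) on the other. The probes of Gpihbp1 in intestine read 110.5 in irradiated and 45.5 in untreated samples, and 94.5 and 86. Neither gene passed in intestine when its probes were averaged. The list's median log2 change was -0.10 in liver, 0.19 in intestine and -0.03 in brain.

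Among the PPAR receptors, their partners and other targets, 16 genes were measured in liver and 17 in each of the other organs. In liver 1 was higher, the hepatic hormone Fgf21, at 99 in irradiated and 52.5 in untreated samples, the untreated value being below the median and the call lost with 50 added. In liver 1 was also lower, the acyl-CoA thioesterase Acot1, at 156.5 in irradiated and 337.5 in untreated samples (2.16-fold lower). In brain 1 was lower, Acadl of fatty acid oxidation, at 205.5 in irradiated and 468.5 in untreated samples (2.28-fold lower), and none passed in intestine. Ppara read 60 in irradiated and 60 in untreated liver, and Pparg, the adipocyte receptor known to drive Fabp4, read 49.5 in irradiated and 36 in untreated liver, below the median in both. Angptl4, an inhibitor of lipoprotein lipase, has 3 probes. In intestine the brightest read 722.5 in irradiated and 299 in untreated samples (2.42-fold higher). The others read 64 and 59 and 53 and 61, each with a value below the median. The mean over the 3 probes did not pass. The list's median log2 change was -0.06 in liver, 0.00 in intestine and 0.03 in brain.

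**Figure D4:**
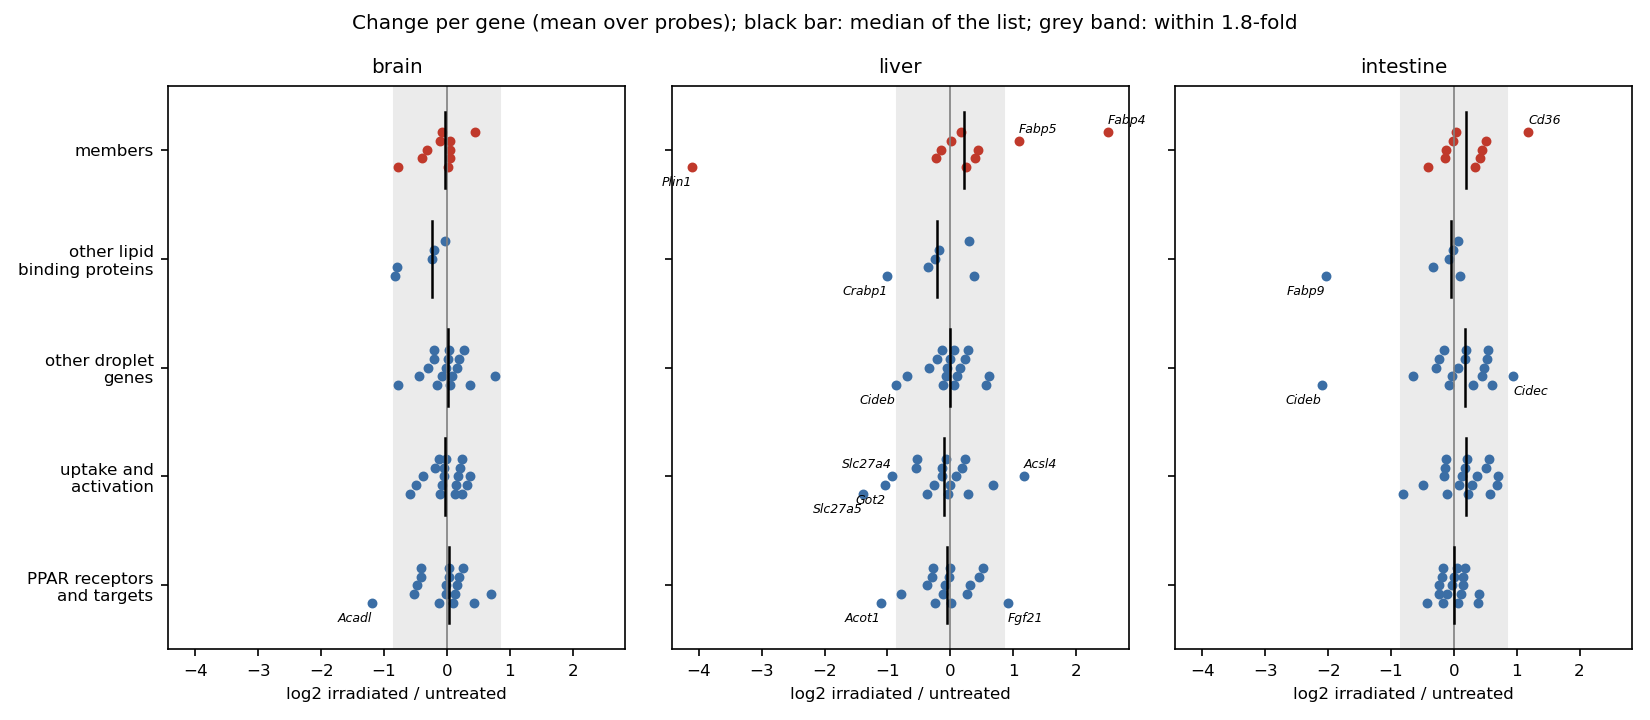
Log2 ratio of irradiated to untreated intensity per gene (mean over its probes) for the 10 members (red) and 4 lists of related genes (blue), with the median of each list as a black bar and changes within 1.8-fold in grey. Few points of the related lists leave the grey band, and Fabp4 in liver (2.50) lies farther from 0 than any of them.

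**Figure D5:**
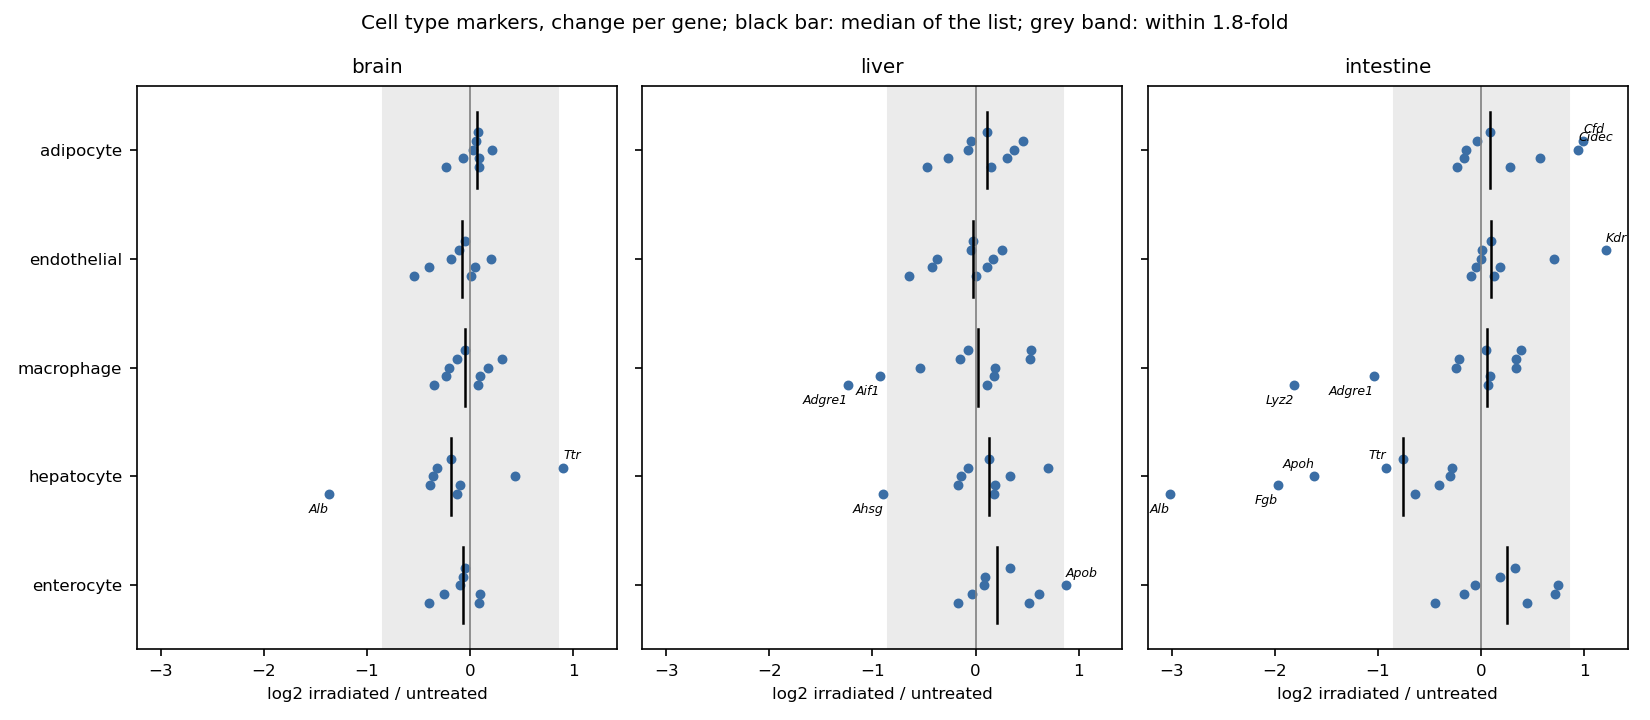
Log2 ratio of irradiated to untreated intensity per gene for 5 lists of cell type markers, with the median as a black bar and changes within 1.8-fold in grey. The hepatocyte list is shifted left in intestine (median -0.76), and no adipocyte or endothelial marker leaves the band in liver.

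The genes with the most similar pattern were sought over the 6 median-centred log2 values of each gene's brightest probe, less its own mean, by Euclidean distance among 15391 genes. Members that spanned at least 2 log2 units entered, which left out Fabp6 (0.75) and Plin2 (1.01). For Fabp1 the nearest gene was Apoa1, the main protein of high-density lipoprotein, at a distance of 0.71 log2 units, with 32848 in irradiated and 31283 in untreated liver, 34794.5 in irradiated and 33592 in untreated intestine, and 137 in irradiated and 150.5 in untreated brain. The next were Apoc3 (1.92) and Ugt1a1 (2.45). For Fabp2 the nearest were Krt8 (2.12), Cdhr5 (2.56) and Sult1b1 (3.08), all genes with high signals in intestine.

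For Fabp4 the nearest gene was the epithelial keratin Krt18 (1.23), at 1862 in irradiated and 569 in untreated liver and 1726.75 in irradiated and 838.5 in untreated intestine, followed by Plbd1 (1.79) and Tnfrsf18 (1.797). For Fabp5 they were Tfcp2 (0.35), Paics (0.37) and Pnpla8 (0.46), and for Cd36 they were Samhd1 (0.52), Trim25 (0.64) and Pdlim1 (0.64). For Plin1 they were Naa35 (0.52), Mrpl10 (0.74) and Tm7sf2 (1.04), each high in untreated liver alone, with Naa35 at 48.5 in irradiated and 1102 in untreated liver. For Fabp3 the nearest were Nrgn (0.36), Jph3 (0.46) and Mllt11 (0.46), and for Fabp7 they were Psd3 (1.15), Mmd2 (1.17) and Slc12a5 (1.54). The distances rest on 3 organs that appeared to be normalized separately, and mostly on which organ is bright.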

How the data were processed

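The authors hybridized Cy5-labelled RNA to the single-colour Mouse Whole Genome OneArray, corrected each spot for its surroundings, dropped control spots and weak spots, and normalized the rest in R (limma is named in their processing notes). The deposited values are intensities on a linear scale, 1 column per organ and treatment. All values are used as deposited. Each probe's irradiated value was divided by its untreated value without an offset and put on the log2 scale, and these ratios were averaged where a gene had several probes. Probe names come from the platform's annotation, and 3410 of 21020 symbols were updated with a mouse RefSeq table (GRCm38.p6). The members, the lists and the measures were chosen with earlier results of these data known. Named were all members, up to 3 called genes per list of related genes and organ with the largest change, up to 2 per marker list where set beside a member, and the 3 genes nearest to each member in pattern. Uncalled list genes were named after their values were seen. Markers of goblet and Paneth cells, muscle, exocrine pancreas and oligodendrocytes were also counted. In intestine these had 0 higher and 1 lower of 8, 1 higher and 0 lower of 10, 0 higher and 1 lower of 7 and none of 7, and in liver none passed. In brain 1 oligodendrocyte marker of 7 was lower and none of the other lists passed. Alternatives were median-centring, quantile normalization, loess removal of the intensity trend (span 0.3), a pseudocount of 50, a filter on probes under the 25th percentile, 2-fold and 1.5-fold thresholds, genes for probes and the brightest probe. Python 3.11.15 (numpy 2.4.6, pandas 2.3.3, matplotlib 3.10.9) and R 4.3.3 (limma 3.58.1) were used. Probe sequences were not used here, so cross-hybridization within the family was not checked.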

Additional observations from a re-analysis of the deposited data

Results flagged for a closer look

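No member passed 1.8-fold in opposite directions in 2 organs. With 1 sample per group, no sample could be set against others of its group.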

How the results depend on the processing

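The calls for Fabp4, Fabp5 and Plin1 in liver and for Cd36 in intestine, taken by gene, held under median-centring, quantile normalization, removal of the intensity trend, a pseudocount of 50 and the brightest probe, and no other member gained a call (150 of 150 values by gene and organ). Many of these values could not differ. Both samples had the same median in liver and in brain, so centring left their ratios unchanged. The brightest probe could matter only for Fabp5, the only member with 2 probes. With a threshold of 1.5-fold, 1 member probe was lower in brain, Fabp1 (its irradiated value below the median), against 0. For the related genes together, 3 were lower in brain under quantile normalization and 3 with the trend removed, against 1. With the pseudocount, 1 was higher and 3 were lower in liver, against 2 and 6, and 0 were higher in intestine, against 1. Of 60 values for called related genes, 6 fell below the threshold and none changed sign. Over all probes the pseudocount left 52 higher and 182 lower probes of 134 and 296 in brain, 221 and 402 of 445 and 724 in liver, and 291 and 514 of 503 and 806 in intestine. The organ with the highest untreated signal changed with the scale for Fabp5, Fabp6 and Plin2. No paired analysis was possible because each group has 1 sample, and no replicate could be left out.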
